A study of Homo sapiens with 6 samples.

Results

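The 41 genes described here act in homologous recombination, in the Fanconi anemia pathway and in the checkpoint that answers DNA damage. They were taken from a list of names by their known roles, chosen with earlier results of these data known. All 41 were found among the 57905 genes of the deposited count table, 34 by the symbol column of the second deposited table and 7 by GENCODE symbols, and all 41 passed the filter on low counts that left 16622 genes for testing. One gene, MRE11A, carries the name MRE11 in the annotation. The libraries came from NALM6, a human line grown from acute lymphoblastic leukemia of B cell precursors. Total RNA was sequenced from 3 libraries of cells treated with the solvent DMSO and 3 of cells treated with 500 nM of THZ1, a covalent inhibitor of the kinase CDK7, each for 24 h. Both groups are the same unmodified line, and the labels do not say whether the 3 libraries of a group came from separate cultures, so that p-values measure the spread between these libraries, which may be technical.

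Homologous recombination repairs a broken chromosome by copying the intact sister strand. The break is first recognized and cut back to single strands by the MRE11A-RAD50-NBN complex with RBBP8 and EXO1, BRCA1 and BRCA2 then prepare the single strand for strand exchange with help from PALB2 and the complexes of RAD51B, RAD51C, RAD51D, XRCC2 and XRCC3, and helicases such as BLM dissolve the joined intermediates. The Fanconi anemia proteins remove crosslinks between strands and hand the break over to the same machinery, while the kinases ATM and ATR with their targets CHEK2 and CHEK1 stop the cell cycle until repair is done. Many of these genes are long and are known to need CDK12 and CDK13, kinases of the RNA polymerase II tail that THZ1 also binds, and many are made mainly in dividing cells. The comparison of THZ1 with DMSO asks how this set of genes stood after a day of transcriptional kinase inhibition.

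The libraries held 7876402 to 11164840 counts on genes, and every DMSO library was deeper than every THZ1 library. A floor of 3 counts amounted to 0.246 to 0.253 CPM (counts scaled to a common library size with TMM factors) in the DMSO libraries and 0.394 to 0.415 CPM in the THZ1 libraries, a limit of counting error only. Single members held between 18 and 11278 counts in a library. The share of counts on mitochondrial genes was 4.32% to 4.37% in the DMSO and 12.6% to 13.6% in the THZ1 libraries. CPM values are relative to the other RNA of a library, so a gene given as higher may only have fallen less than that RNA. Neither the amount of RNA per cell nor the number of cells can be read from them. Of 12 markers of B cell precursors, 11 were matched and all 11 were measured above the filter, with PAX5 at 541 ± 58.7 CPM and DNTT at 455 ± 23.9 CPM (SD, n = 3 libraries) in the DMSO libraries. Of these 11 markers 8 were lower and 2 higher with THZ1, and their summed level went from between 4005 and 4165 CPM to between 2116 and 2187 CPM. Of 12 markers of T cells, myeloid and erythroid cells, CD8A had 0 counts in all 6 libraries, 8, with CD8A among them, did not pass the filter, and the summed level of all 12 was 4.47 to 4.96 CPM with DMSO against 19.7 to 20.9 CPM with THZ1. Of the 4 that passed the filter, 2 were higher, 1 was lower, with a log2 fold change of −0.83, and 1 was not called. Among the 12 markers, CD14 rose from 0.636 ± 0.0885 to 8.71 ± 1.10 CPM, and CSF1R had 0.111 ± 0.0475 and 6.08 ± 1.59 CPM, the former under the floor. The part of these shifts in the results below was not tested.

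Most of the 41 genes were lower with THZ1. By the quasi-likelihood test of edgeR, with p-values adjusted after Benjamini-Hochberg over the 16622 genes, 29 of the 41 were lower, 7 were higher and 5 were not called at an adjusted p-value below 0.05. Changes were common in all genes, since 84.5% were called, 41.1% lower and 43.5% higher, and among protein-coding genes 47.6% were lower and 36.3% higher. Within the members' range of mean CPM, 50.9% of protein-coding genes were lower and 34.2% higher. The 29 lower genes were thus 70.7% of the members, and the 7 higher genes 17.1%. The median log2 fold change of the members was −0.92 (quartiles −1.39 and −0.08), against 0.03 for all genes tested and −0.20 for protein-coding genes. For 35 of the 41 genes the direction and the call were the same in every alternative analysis run on them, which was 16 analyses for 28 genes and 13 for the 7 genes without an FPKM value, and the 6 others are named with their values below. Another scaling moved all genes alike: the median over shared genes moved by 0.19 under upper quartile scaling, where the members' median was −0.73, and by −0.25 where only library sizes were used, with −1.17 for the members. No overlap between the groups was seen for 38 of the 41, 29 of them called lower and 7 called higher, beside 84.7% of all genes (41.3% lower and 43.4% higher). Past 1.5 on the log2 scale, the size used as a threshold in the study, lay 8 of the 41, all lower, beside 12.9% of all genes lower and 24.6% higher past that size. With library sizes alone 14 members were lower past it, and 13 of 34 in FPKM with a pseudocount of 0.1. With upper quartile factors fewer than 8 were, as EXO1 was at −1.43 and BRCA2 at −1.36. In the main analysis BRCA2, at −1.55, was the last member inside this threshold, and RAD50, at −1.45, the first outside it. Within a group the libraries were close, with a median coefficient of variation over the 41 genes of 7.48% for DMSO and 6.80% for THZ1. Replicate 2 was the highest DMSO library for 26 members and replicate 3 the lowest for 25. In the annotation 31 of the 41 genes overlap a gene on the opposite strand, and as the strand setting of the counting is not given, reads of such pairs cannot be told apart. Expression of 20 members stood at or below 50% of the DMSO level, beside 22.7% of all genes and 24.8% of protein-coding genes, and that of 4 at or below 25%, beside 6.65% and 6.12%.

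**Figure D1:**
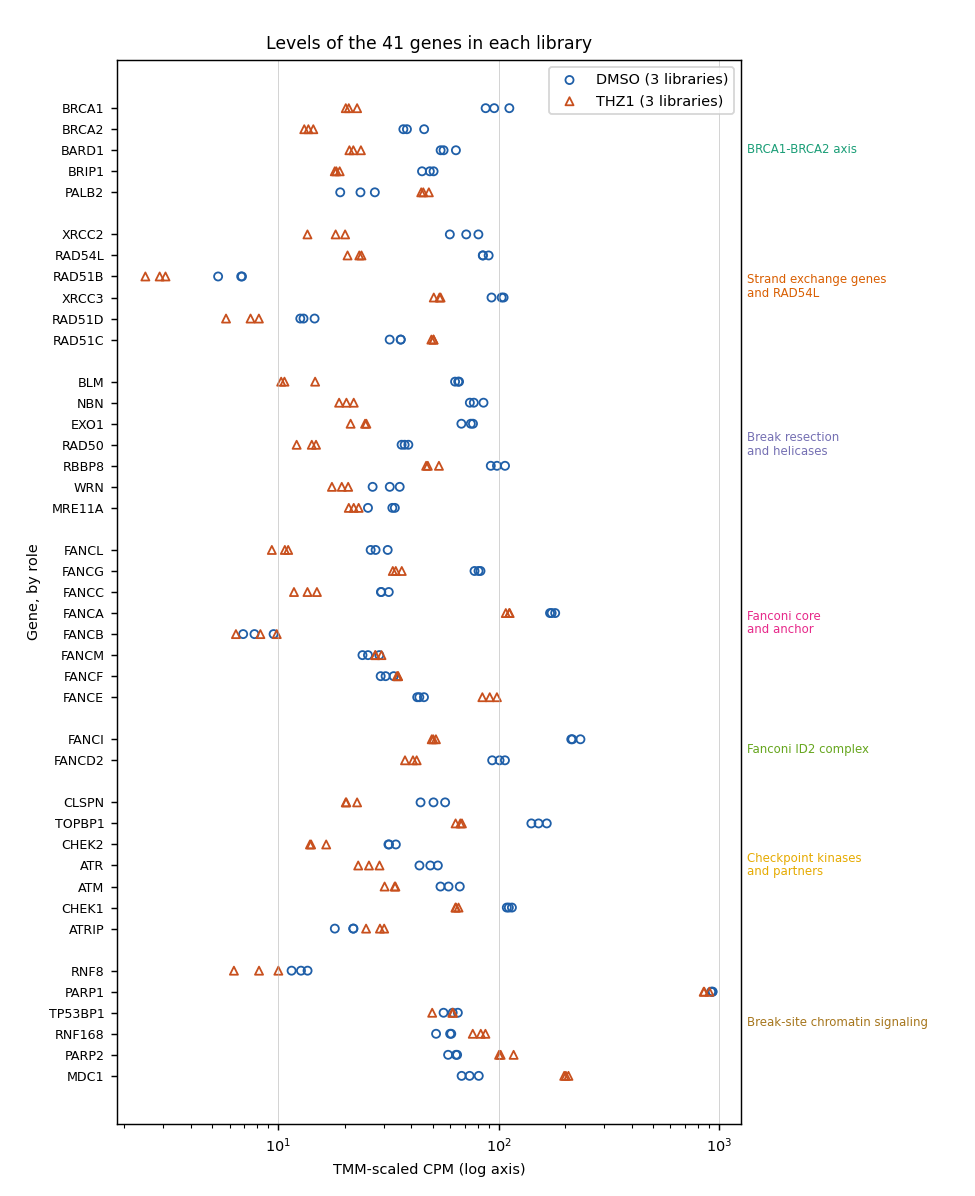
Level of each of the 41 genes in each of the 6 libraries, as TMM-scaled CPM on a log axis, with genes grouped by role. Circles are the 3 DMSO libraries and triangles the 3 THZ1 libraries, and the triangles lie left of all circles for the 29 genes called lower and right of them for the 7 called higher.

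The BRCA1-BRCA2 axis was lower except for PALB2. BRCA1, a ubiquitin ligase that favors recombination over end joining, lies on chromosome 17 from 41196312 to 41322262 (positions of genes are in GRCh37). BRCA1 had 95.2, 112 and 87.1 CPM in the DMSO libraries and 22.7, 20.2 and 20.9 CPM in the THZ1 libraries. The values of the groups lay far apart, and the THZ1 libraries held 21.7% of the DMSO level. The log2 fold change was −2.20 (standard error 0.10, edgeR adjusted p = 5.7e-19). BRCA1P1 and NBR2 overlap BRCA1 in the annotation, so some reads could be shared. BRCA2, which acts on the single strands left by resection, lies on chromosome 13 from 32889223 to 32974405. In the DMSO libraries BRCA2 stood at 38.3, 45.8 and 36.9 CPM, and under THZ1 at 13.7, 14.4 and 13.1 CPM. Its log2 fold change was −1.55 (standard error 0.12, edgeR adjusted p = 1.8e-13). BARD1, the obligate partner of BRCA1, fell from 58.1 ± 5.02 to 22.2 ± 1.37 CPM (SD, n = 3 each), and BRIP1, a helicase that binds BRCA1, from 48.0 ± 2.93 to 18.4 ± 0.485 CPM. Both changed by much the same amount, with log2 fold changes of −1.39 and −1.38. PALB2, the protein that bridges BRCA1 and BRCA2, lies on chromosome 16 from 23614481 to 23652642 and moved the other way. The 3 DMSO libraries held 23.6, 27.4 and 19.1 CPM of PALB2, and the 3 THZ1 libraries 44.4, 45.4 and 48.1 CPM. Every THZ1 library was above every DMSO library, and the log2 fold change was 0.98 (standard error 0.11, edgeR adjusted p = 1.4e-09). The median log2 fold change of the 5 genes was −1.39.

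RAD51B, RAD51C, RAD51D, XRCC2 and XRCC3 form complexes that help strand exchange, and RAD54L is a motor protein of the same step. Of these 6 genes 5 were lower, beside 41.1% of all genes called lower. XRCC2, on chromosome 7 from 152341861 to 152373278, fell most (log2 fold change −2.03, standard error 0.12, edgeR adjusted p = 4.0e-16). Levels of XRCC2 were 71.1, 80.7 and 59.9 CPM without the drug and 13.5, 20.1 and 18.2 CPM with it. RAD54L, on chromosome 1 from 46712133 to 46744152, was close to it, at −1.94 (standard error 0.09, edgeR adjusted p = 1.6e-18). For RAD54L, CPM values were 84.6, 84.6 and 89.9 in DMSO and 23.3, 23.8 and 20.6 in THZ1 libraries. For both genes the groups were far apart, and the libraries of a group differed less for RAD54L than for XRCC2. LRRC41 overlaps RAD54L on the opposite strand. XRCC3 and RAD51D fell to similar degrees, by 0.92 and 0.91 on the log2 scale, from 100.2 ± 6.67 to 53.0 ± 2.0 CPM and from 13.4 ± 1.07 to 7.14 ± 1.22 CPM. RAD51B had the fewest counts of all 41 genes, 6.31 ± 0.855 CPM in DMSO and 2.82 ± 0.298 CPM in THZ1 libraries, and its log2 fold change of −1.16 had the widest error of the members (standard error 0.24, edgeR adjusted p = 4.4e-05). RAD51C, which takes part in both kinds of these complexes, rose. RAD51C had 35.9, 32.0 and 35.9 CPM in the DMSO libraries and 50.5, 49.4 and 50.5 CPM in the THZ1 libraries. Its log2 fold change was 0.54 (standard error 0.09, edgeR adjusted p = 3.1e-06), on chromosome 17 from 56769934 to 56812972.

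All 7 genes of break resection and of the helicases were lower, beside 41.1% of all genes called lower. This was the only role group of more than 2 genes without an exception. BLM, the helicase lost in Bloom syndrome, fell most of all 41 genes (log2 fold change −2.45, standard error 0.11, edgeR adjusted p = 8.5e-19), and lies on chromosome 15 from 91260577 to 91359396. In the DMSO libraries BLM stood at 65.4, 66.0 and 63.3 CPM, and under THZ1 at 10.7, 14.7 and 10.3 CPM. The DMSO libraries agreed closely, and the THZ1 libraries held 18.3% of the DMSO level. NBN, the subunit that recruits ATM, was also among the lowest. The 3 DMSO libraries held 77.0, 85.2 and 73.8 CPM of NBN, and the 3 THZ1 libraries 22.0, 20.3 and 18.8 CPM. Its log2 fold change was −1.95 (standard error 0.10, edgeR adjusted p = 5.6e-18), and DECR1 and OSGIN2 overlap NBN on the opposite strand. EXO1, the exonuclease of long-range resection, lies on chromosome 1 from 242011269 to 242058450. Levels of EXO1 were 76.3, 74.6 and 67.6 CPM without the drug and 24.7, 25.1 and 21.3 CPM with it. It fell by 1.62 on the log2 scale (standard error 0.10, edgeR adjusted p = 4.0e-16). The 3 subunits of the MRE11A-RAD50-NBN complex differed in size: RAD50 had a log2 fold change of −1.45 (standard error 0.12), between NBN and MRE11A. MRE11A, the nuclease of the complex, changed least of the group and lies on chromosome 11 from 94148736 to 94227051. For MRE11A, CPM values were 33.7, 32.9 and 25.5 in DMSO and 22.0, 23.1 and 20.9 in THZ1 libraries. The lowest DMSO library stood just above the highest THZ1 library, and the log2 fold change was −0.48 (standard error 0.12, edgeR adjusted p = 0.000383). RBBP8, which starts resection, went from 98.9 ± 7.40 to 49.3 ± 3.65 CPM, a fall by 1.0 on the log2 scale, and WRN, the Werner syndrome helicase, went from 31.4 ± 4.4 to 19.2 ± 1.62 CPM with a log2 fold change of −0.71.

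The Fanconi anemia genes were split. The ID2 complex, whose ubiquitination is the central step of the pathway, fell in both subunits. FANCI lies on chromosome 15 from 89787176 to 89860492. FANCI had 215, 234 and 213 CPM in the DMSO libraries and 51.8, 50.4 and 49.6 CPM in the THZ1 libraries. Its log2 fold change of −2.13 had the smallest adjusted p-value of the 41 genes (standard error 0.08, edgeR adjusted p = 9.8e-22), and POLG overlaps FANCI on the opposite strand. FANCD2 lies on chromosome 3 from 10068054 to 10143616. In the DMSO libraries FANCD2 stood at 101, 107 and 93.2 CPM, and under THZ1 at 40.8, 37.5 and 42.4 CPM. FANCD2 fell less, by 1.32 on the log2 scale (standard error 0.09, edgeR adjusted p = 3.6e-15), and the pseudogene FANCD2P2 is a copy with which it could share reads.

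Of the 8 genes of the core complex that ubiquitinates ID2 and of its anchor, 4 were lower, 1 was higher and 3 were not called. Over all genes, 41.1% were called lower and 43.5% higher. For protein-coding genes within the members' range of mean CPM, 50.9% were lower and 34.2% higher, so the share of lower genes was near that of other genes. FANCL, the ligase subunit, was the lowest of the 8 and lies on chromosome 2 from 58386378 to 58468545. The 3 DMSO libraries held 26.2, 31.3 and 27.6 CPM of FANCL, and the 3 THZ1 libraries 9.34, 11.1 and 10.7 CPM. The log2 fold change of FANCL was −1.45 (standard error 0.13, edgeR adjusted p = 9.4e-12). FANCG went from 80.3 ± 2.54 to 34.4 ± 1.66 CPM, FANCC from 30.0 ± 1.41 to 13.4 ± 1.60 CPM and FANCA from 175 ± 4.83 to 110.3 ± 2.43 CPM, with log2 fold changes of −1.22, −1.16 and −0.66. FANCE, which links the core to FANCD2, lies on chromosome 6 from 35420115 to 35434881 and rose. Levels of FANCE were 43.6, 45.7 and 42.6 CPM without the drug and 98.0, 84.2 and 90.9 CPM with it. The log2 fold change of FANCE was 1.05 (standard error 0.08, edgeR adjusted p = 5.1e-13), and every THZ1 library was above every DMSO library. FANCB, FANCF and FANCM were not called. FANCB, on chromosome X from 14708510 to 14891377, had few counts. For FANCB, CPM values were 9.51, 7.79 and 6.92 in DMSO and 8.28, 9.83 and 6.42 in THZ1 libraries. The groups overlapped, and the log2 fold change of FANCB was 0.02 with an approximate 95% interval from −0.35 to 0.38 (edgeR adjusted p = 0.939). FANCM, the anchor helicase on chromosome 14 from 45605133 to 45670093, also overlapped. FANCM had 24.1, 28.7 and 25.5 CPM in the DMSO libraries and 27.5, 29.3 and 27.5 CPM in the THZ1 libraries. Its log2 fold change was 0.11, with an interval from −0.10 to 0.32 (edgeR adjusted p = 0.350). FANCF has a single exon, on chromosome 11 from 22644079 to 22647369, and GAS2 overlaps it on the opposite strand. In the DMSO libraries FANCF stood at 33.3, 29.1 and 30.6 CPM, and under THZ1 at 34.8, 34.5 and 34.9 CPM. The THZ1 libraries were all slightly above the DMSO libraries, but the log2 fold change of 0.16, with an interval from −0.03 to 0.36, was not called (edgeR adjusted p = 0.124). The calls of these 3 depended on the processing: FANCF was called higher with RLE factors, with upper quartile factors and where every library had to hold at least 10 counts, FANCM was called higher with the latter 2 and lower in the deposited log2 FPKM values, and FANCB was called lower only in the FPKM values.

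In the checkpoint, both apical kinases and both effector kinases were lower. ATM, the kinase of double-strand breaks, went from 60.0 ± 6.11 to 32.6 ± 2.02 CPM and ATR, the kinase of stalled forks, from 48.5 ± 4.63 to 25.8 ± 2.87 CPM, with log2 fold changes of −0.88 and −0.91. CHEK1, the target of ATR, went from 111 ± 2.99 to 64.4 ± 1.11 CPM with a log2 fold change of −0.79, and CHEK2, the target of ATM, from 32.5 ± 1.41 to 14.8 ± 1.44 CPM with −1.13. CHEK2 has 7 named pseudogenes in the annotation, so its counts are uncertain by the reads these copies may take or give. CLSPN, the adaptor that brings CHEK1 to ATR, was the lowest of the group and lies on chromosome 1 from 36185819 to 36235579. The 3 DMSO libraries held 50.5, 57.0 and 44.1 CPM of CLSPN, and the 3 THZ1 libraries 22.7, 20.2 and 20.3 CPM. The log2 fold change of CLSPN was −1.26 (standard error 0.11, edgeR adjusted p = 3.4e-12), and that of TOPBP1, the activator of ATR, was −1.20, from 152 ± 12.3 to 66.2 ± 2.26 CPM. ATRIP, the constant partner of ATR, was the only one of the group called higher. Levels of ATRIP were 18.0, 21.9 and 21.9 CPM without the drug and 25.0, 30.2 and 28.9 CPM with it. The log2 fold change of ATRIP was 0.44 (standard error 0.12, edgeR adjusted p = 0.000883), on chromosome 3 from 48488114 to 48509044. This call was lost with library sizes alone (log2 fold change 0.20, edgeR adjusted p = 0.122) and in the FPKM values (0.16, limma adjusted p = 0.244), and over all alternatives the adjusted p of ATRIP ranged from 9.6e-06 to 0.244. TREX1 overlaps ATRIP on the same strand.

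The genes that signal on the chromatin around a break included 3 of 6 called higher, 1 lower and 2 not called, beside the 43.5% of all genes called higher. MDC1, the scaffold that binds phosphorylated histone H2AX, rose most of the 41 genes (log2 fold change 1.45, standard error 0.08, edgeR adjusted p = 1.3e-17), and lies on chromosome 6 from 30667584 to 30685224. For MDC1, CPM values were 73.7, 81.1 and 67.8 in DMSO and 201, 207 and 198 in THZ1 libraries. All THZ1 libraries lay far above the DMSO libraries, 2.72-fold on average, while MDC1-AS1 and TUBB overlap MDC1 on the opposite strand. PARP2 rose from 62.5 ± 3.15 to 106 ± 9.04 CPM and RNF168, the ligase that ubiquitinates histones at breaks, from 57.6 ± 4.96 to 81.9 ± 5.43 CPM, with log2 fold changes of 0.77 and 0.51. RNF8, the ligase that acts before RNF168, was lower and lies on chromosome 6 from 37321755 to 37362510. RNF8 had 13.6, 11.5 and 12.7 CPM in the DMSO libraries and 9.99, 8.17 and 6.28 CPM in the THZ1 libraries. Its log2 fold change was −0.62 (standard error 0.17, edgeR adjusted p = 0.00118). PARP1, the main sensor of strand breaks on chromosome 1 from 226547911 to 226595855, was the member with the most counts. In the DMSO libraries PARP1 stood at 932, 918 and 929 CPM, and under THZ1 at 849, 854 and 901 CPM. The values differed by a few percent, with a log2 fold change of −0.09, an interval from −0.22 to 0.03 and an edgeR adjusted p of 0.181. TP53BP1, which opposes BRCA1 by protecting ends from resection, lies on chromosome 15 from 43695259 to 43802926. The 3 DMSO libraries held 65.1, 61.7 and 56.1 CPM of TP53BP1, and the 3 THZ1 libraries 61.9, 49.8 and 61.5 CPM. The groups overlapped, and the log2 fold change was −0.08, with an interval from −0.26 to 0.10 (edgeR adjusted p = 0.429). PARP1 and TP53BP1 were called lower with library sizes alone and in the FPKM values, and PARP1 also with no filter.

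**Figure D2:**
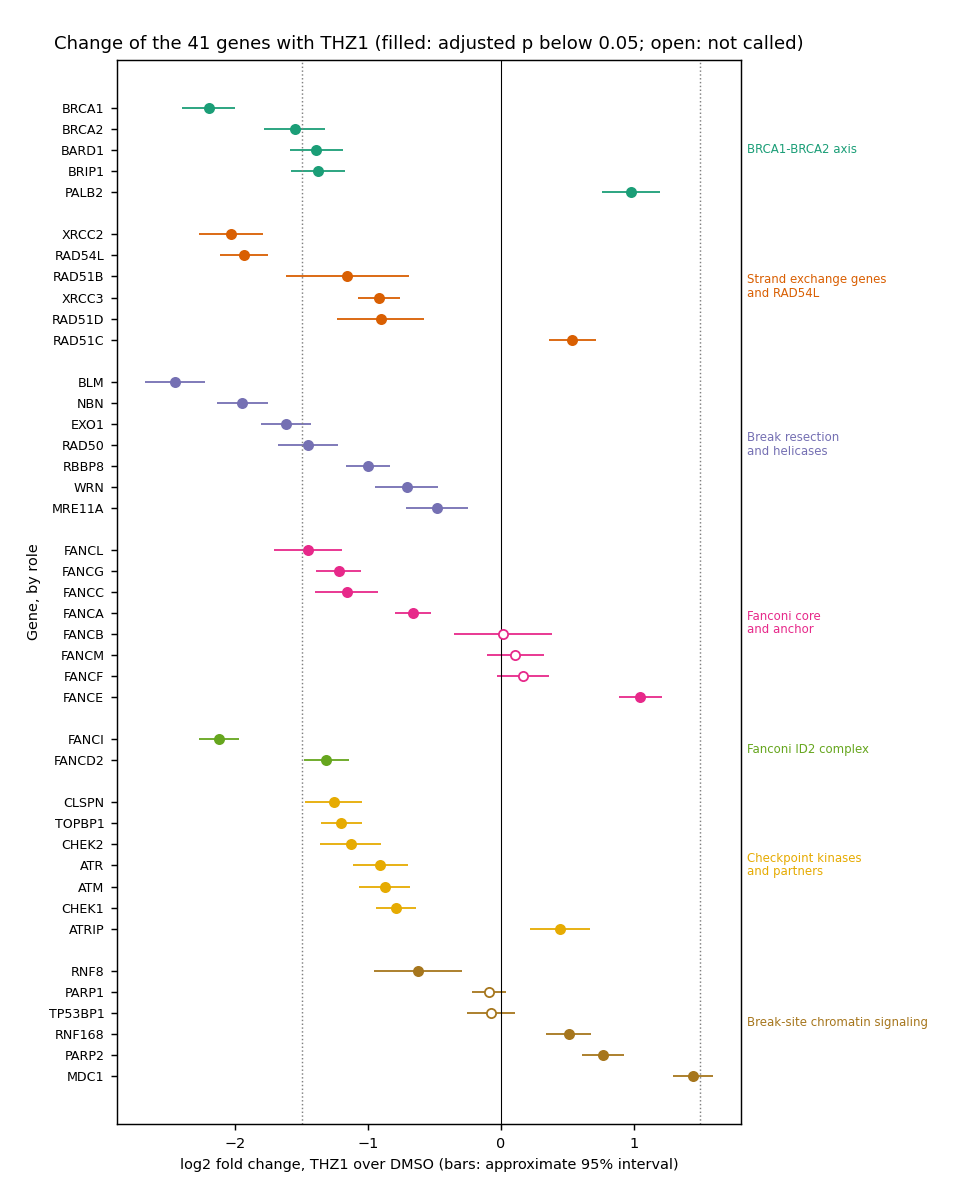
Log2 fold change of each of the 41 genes, THZ1 over DMSO, by role, with bars for the approximate 95% interval. Filled points passed an adjusted p-value below 0.05 in edgeR and open points did not, and the dotted lines mark 1.5 in size. The lowest is BLM at −2.45 and the highest MDC1 at 1.45.

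Genes that work together, as partners or in successive steps, did not always move together. PALB2 rose while BRCA1 and BRCA2 fell, and ATRIP rose while ATR fell. RAD51C rose while RAD51B, RAD51D, XRCC2 and XRCC3 fell, and RNF168 rose while RNF8, which acts before it, fell. Each change was called by its own test in the main analysis. The rise of ATRIP was not called with library sizes alone or in the FPKM values. These genes were picked by calls in opposite directions, so their approximate 95% intervals in the main analysis lay apart by that choice. The interval of PALB2 was 0.76 to 1.19, against −1.79 to −1.32 for BRCA2. That of ATRIP was 0.21 to 0.67, against −1.11 to −0.70 for ATR. The difference between partners was not tested in itself.

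Reads per gene do not compare levels between genes, for which the deposited FPKM values (fragments per kilobase of transcript, scaled for depth) were used for the 34 members that had one, taken back from their log2 scale. An offset of 1 before the logarithm was assumed and subtracted, since no value is below 0 but no source used here gives the offset, and without it each level would be 1 FPKM higher. In the DMSO libraries PARP1 was highest, at 379.5 ± 30.4 FPKM (SD, n = 3), followed by FANCI at 80.7 ± 7.21 and FANCG at 62.5 ± 0.699. ATR was the lowest of the 34, at 5.86 ± 0.316 FPKM, below RNF8 at 6.24 ± 0.521 and FANCB at 7.09 ± 0.905. In the THZ1 libraries PARP1 held 294 ± 12.5 FPKM, MDC1 67.9 ± 1.35 and FANCE 86.1 ± 6.59, whereas FANCI held 16.3 ± 0.429. MDC1 and FANCE thus stood above FANCI per length after THZ1 and below it with DMSO.

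The second table gave the same signs for 32 of 34 members. With limma on its log2 values, 26 were lower, 6 higher and 2 not called, beside 44.6% of 16730 genes lower and 35.9% higher. Libraries of 1 treatment held nearly the same sorted values, by a step that is not described. This may have narrowed the spread behind these calls and behind the SDs of FPKM levels. The log2 change was lower than that from counts for all 34 members, by a median of 0.17, while the median over genes found in both was shifted by −0.26. RNF8, FANCB, ATR and ATM differed by more than 0.4. For ATR the change was −1.46 in FPKM and −0.91 in counts, and for ATM −1.38 and −0.88. FANCB and FANCM were the 2 with opposite signs, at −0.56 and −0.28 in FPKM.

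**Figure D3:**
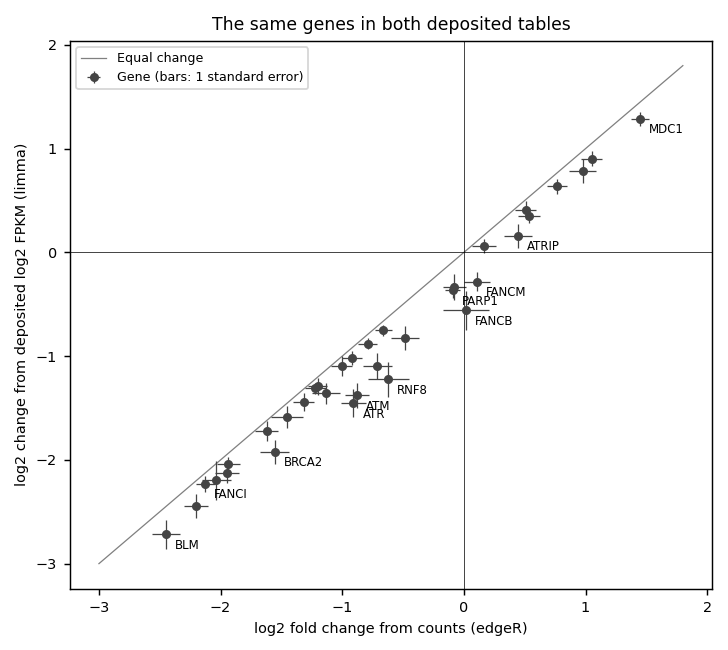
Log2 change of the 34 members found in both deposited tables, from counts with edgeR on the horizontal axis and from the deposited log2 FPKM with limma on the vertical axis, with bars of 1 standard error. The line marks equal change, and all 34 points lie below it, with ATR, ATM, RNF8 and FANCB farthest from it.

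Gene span was set beside the changes. The median span of the members was 64961 bases in GRCh37, against 30680 for the 11929 protein-coding genes tested. Across the 41 genes the log2 fold change had a Spearman correlation of −0.35 with span, and across the protein-coding genes the value was −0.34. For the number of exons the values were −0.30 and −0.20. These are correlations across genes that share the same 6 libraries, and no p-value is given. The 6 members under 20000 bases had a median log2 fold change of 0.47, close to the 0.39 of protein-coding genes of that span. From 20000 to 50000 bases the medians were −0.62 for 11 members and −0.34 for all, and from 50000 to 100000 bases they were −1.35 for 14 members and −0.52 for all. The 10 members over 100000 bases had a median of −0.96, against −0.64. Of the 7 genes called higher, MDC1, PARP2 and FANCE spanned less than 20000 bases and the other 4 less than 50000. The smallest gene that fell was FANCG, which spans 6170 bases, and the longest, RAD51B at 910440 bases, fell less than BLM at 98820 bases.

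**Figure D4:**
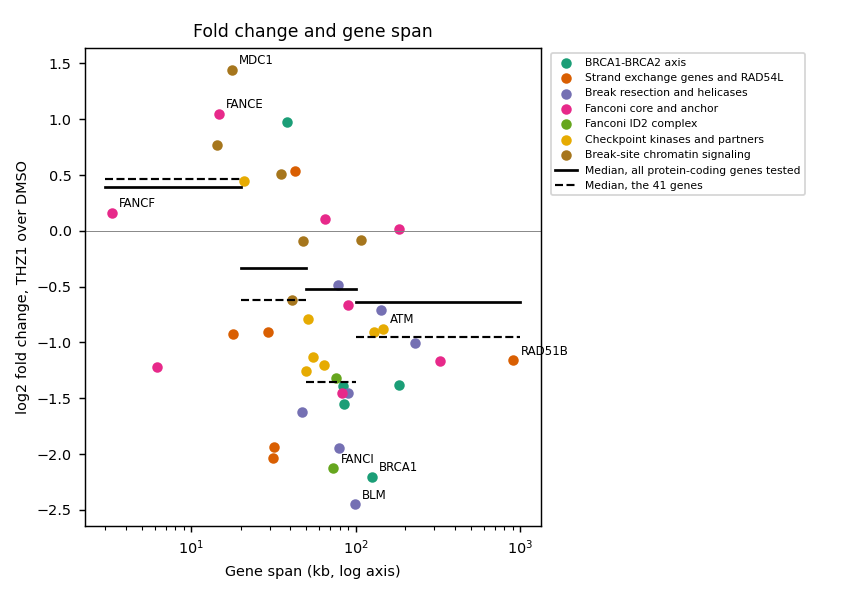
Log2 fold change, THZ1 over DMSO, of the 41 genes against gene span in kilobases on a log axis, colored by role. Solid lines are the medians of all protein-coding genes tested in 4 ranges of span (0.39, −0.34, −0.52 and −0.64) and dashed lines those of the members (0.47, −0.62, −1.35 and −0.96).

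Promoter windows of 300 bases, from 250 before a start to 50 after it, were found in the RefSeq table (GRCh38.p14) for 38 of the 41 genes (all but NBN, WRN and FANCI), 50 windows in all. They were searched on both strands for 3 forms of the E2F motif, TTTCGCGC, TTTGGCGC and TTTCCCGC. E2F factors are known to drive genes of the S phase. The letters were found for 6 of 38 genes (15.8%), against 2.74% of all 35116 windows and 5.64% of the 9719 tested protein-coding genes with a window. The 6 genes, CLSPN, EXO1, FANCC, FANCD2, TOPBP1 and XRCC2, were all among the 26 lower members with a window, and none of the 7 higher or 5 uncalled members held the letters. CCAAT, the letters of the factor NFY, was found for 47.4% of the members, 34.6% of all windows and 43.2% of the tested protein-coding genes. TTTGAA or TTCGAA was found for 13.2%, 16.4% and 15.2%, and GCATGCGC, a form of the NRF1 motif, for 5.26%, 3.05% and 6.49%. Shares of all windows are per window, and the others are per gene. The median GC content was 64.3% in the members' windows and 58.7% in all windows. The part of this difference in the shares was not tested. A match describes the letters only. The stretches that hold the E2F letters follow in the direction of the gene, with the letters in capitals. They run from base −90 to base 30 around the start, except for FANCC, whose stretch runs from −202 to −9.
CLSPN, chr1:35769949-35770068, minus strand: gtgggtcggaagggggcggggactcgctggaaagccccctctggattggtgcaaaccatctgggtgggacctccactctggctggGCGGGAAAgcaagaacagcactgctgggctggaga
EXO1, chr1:241848114-241848233, plus strand: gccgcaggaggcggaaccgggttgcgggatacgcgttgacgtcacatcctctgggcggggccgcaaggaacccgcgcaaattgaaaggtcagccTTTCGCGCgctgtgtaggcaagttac
FANCC, chr9:95317718-95317911, minus strand: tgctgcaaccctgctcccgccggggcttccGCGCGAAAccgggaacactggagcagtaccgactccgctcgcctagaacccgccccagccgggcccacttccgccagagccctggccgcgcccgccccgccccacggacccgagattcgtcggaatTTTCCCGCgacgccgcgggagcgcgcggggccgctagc
FANCD2, chr3:10026347-10026466, plus strand: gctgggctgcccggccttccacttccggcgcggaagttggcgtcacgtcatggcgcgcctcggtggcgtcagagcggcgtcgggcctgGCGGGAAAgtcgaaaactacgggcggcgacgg
TOPBP1, chr3:133661912-133662031, minus strand: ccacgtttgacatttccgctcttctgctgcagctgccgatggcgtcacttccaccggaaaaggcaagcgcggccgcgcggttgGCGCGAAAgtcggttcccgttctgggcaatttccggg
XRCC2, chr7:152676112-152676231, minus strand: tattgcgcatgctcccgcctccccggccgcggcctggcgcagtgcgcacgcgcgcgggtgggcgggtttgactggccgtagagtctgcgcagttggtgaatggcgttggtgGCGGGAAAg
The letters lay across the start for CLSPN, FANCD2 and TOPBP1. They lay after the start for EXO1 and XRCC2, with the first base of the motif at 5 and at 22. MDC1, the member that rose most, held none of these letters and is shown for comparison with its CCAAT letters in capitals, from −249 to −20.
MDC1, chr6:30717301-30717530, minus strand: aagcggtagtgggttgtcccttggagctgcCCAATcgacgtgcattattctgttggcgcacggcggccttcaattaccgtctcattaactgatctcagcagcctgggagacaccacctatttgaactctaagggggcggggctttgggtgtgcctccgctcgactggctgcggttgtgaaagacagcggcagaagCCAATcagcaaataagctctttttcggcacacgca

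Other lists of the same field, written with earlier results of these data known, were read in the same fit. Of 35 tested genes of homologous recombination and the Fanconi pathway outside the 41, 20 were lower and 10 higher, with a median log2 fold change of −0.48. The lowest was UBE2T, the enzyme that conjugates ubiquitin to ID2, at −2.69 (88.3 ± 10.3 to 13.6 ± 1.81 CPM), and the highest the helicase RTEL1, at 3.71 but with only 0.746 ± 0.211 CPM in the DMSO libraries. Of 28 other checkpoint and break signaling genes 18 were lower and 7 higher (median −0.42), from RNF169 at −2.52 to H2AFX, the gene of the histone that MDC1 binds, at 1.57 (237 ± 31.2 to 700.4 ± 14.9 CPM). Non-homologous end joining had 10 lower and 2 higher of 14 (median −0.90), with XRCC4 lowest at −4.10 (17.1 ± 0.475 to 0.986 ± 0.0760 CPM) and NHEJ1 highest, which went from 0.248 ± 0.218 to 3.42 ± 1.56 CPM. Among 7 mismatch repair genes 4 were lower and 1 higher (median −0.61), with PMS2 highest at 0.71. Among 32 excision repair genes 18 were lower and 8 higher (median −0.41), from TDG at −2.18 to NEIL1 at 1.66. The DNA replication genes, made in the S phase as many of the 41 are, had 30 lower and 2 higher of 32 (median −1.29), from POLA2 at −2.69 to MCM2 at 0.48. These shares stand beside the 41.1% of all genes lower and 43.5% higher, and beside the 47.6% of protein-coding genes lower and 36.3% higher. No list was tested as a set. The mRNAs of CDK12, CDK13 and their cyclin CCNK rose. CDK12 went from 109 ± 19.2 to 159.9 ± 3.67 CPM, CDK13 from 58.2 ± 4.36 to 92.9 ± 3.59 CPM and CCNK from 70.5 ± 5.33 to 118 ± 3.23 CPM. The log2 fold changes were 0.55, 0.68 and 0.74 (edgeR adjusted p = 9.1e-07, 5.1e-09 and 2.7e-10), beside 43.5% of all genes called higher. These values are not protein or kinase activity.

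**Figure D5:**
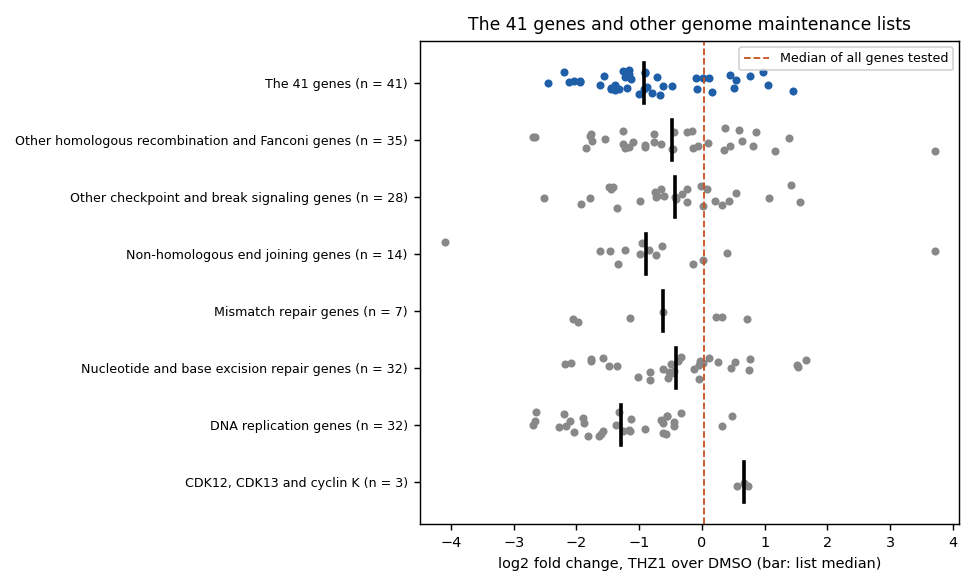
Log2 fold change, THZ1 over DMSO, of single genes in the 41-gene set and in 7 other lists, with a bar at each list's median and a dashed line at the median of all genes tested (0.03). The 41 genes have a median of −0.92, next to the end joining list at −0.90, with the DNA replication list lower, at −1.29.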

How the data were processed

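Total RNA of NALM6 cells was sequenced by the authors, trimmed with cutadapt, mapped with STAR to GRCh37 and counted per gene with HTSeq, per the labels and the study's methods, and the deposited count table holds raw counts. A second deposited table holds log2 FPKM values, for which RSEM is named in the submitters' processing notes. It was taken as log2(FPKM + 1), an assumption, as no value is below 0. The offset, a step that left libraries of 1 treatment with nearly the same sorted values, the annotation and the strand setting are not given in the sources used here.

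Counts were filtered with filterByExpr (minimum count 10, minimum total count 15), scaled with TMM and tested with edgeR 4.0.16 (glmQLFit, glmQLFTest, two-sided) in R 4.3.3, with treatment as the only term and Benjamini-Hochberg adjustment over 16622 genes. The depth of 7876402 to 11164840 counts per library and 3 libraries per group set the precision, and intervals of fold changes are approximate 95% intervals. Alternatives were RLE, upper quartile and unscaled factors, DESeq2 1.42.0, other filters, a replicate block, leaving out each library, and limma 3.58.1 on the deposited log2 values and with a pseudocount of 0.1 or a minimum mean FPKM of 1. The fit was run on simulated data in which few genes changed, as many raised as lowered. That run cannot check the scaling for these data, where 84.5% of genes were called. Gene positions came from GENCODE 44 lifted to GRCh37, and promoter sequences from RefSeq (GRCh38.p14). The members and lists were chosen with earlier results of these data known. Members were described in full if lowest or highest of their role group, past 1.5 on the log2 scale, not called, or changed by an alternative. CD24 was not matched. Libraries of a group always differed by more than counting error. Some genes of the other lists are not reported here.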

Additional observations from a re-analysis of the deposited data

How the results depend on the processing

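Of the 41 genes, 29 were lower and 7 higher, and over all alternatives 29 to 31 were lower and 6 to 9 higher in counts, with 26 lower and 6 higher of 34 in FPKM. Lower genes past 1.5 on the log2 scale numbered 14 with library sizes alone and 13 of 34 in FPKM with a pseudocount of 0.1, against 8, and 7 to 10 when 1 library was left out. Fewer than 8 were past it with upper quartile factors, where EXO1 was −1.43 and BRCA2 −1.36. The same held where every library had to hold at least 10 counts, with −1.49 and −1.42. BRCA2 also fell short of it, at −1.49, with DESeq2 and with RLE factors. MDC1 was the 1 gene higher past 1.5 with DESeq2, with RLE factors, with upper quartile factors and under the stricter filter of 10 counts per library, against 0. The median of the 41 genes, −0.92, was −0.79 under the stricter filter, −1.17 with library sizes alone, −0.73 with upper quartile factors and −1.01 with no filter. With a library left out it was −1.03 to −0.92. Over the 34 genes with an FPKM value the median was −1.09 in FPKM and with a minimum mean FPKM of 1, and −1.18 with a pseudocount of 0.1. The 7 genes without an FPKM value were all called lower in counts, so the FPKM medians and −0.92 cover unlike sets of genes. The cause of these differences was not tested.

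Genes not called in the main analysis changed sign. FANCB, at 0.02, was −0.23 with library sizes alone, −0.56 in FPKM with or without the minimum, −0.65 with a pseudocount of 0.1, −0.071 with no filter and −0.15 to 0.15 with a library left out. FANCM was −0.14 with library sizes alone, −0.28 in FPKM and −0.31 with a pseudocount of 0.1, and FANCF −0.084 with library sizes alone. Under the stricter filter of 10 counts per library and with upper quartile factors, TP53BP1 was 0.055 and 0.12 and PARP1 0.039 and 0.10. TP53BP1 was also 0.0056 without THZ1 replicate 2, and −0.15 to 0.0056 over all libraries left out.

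In the other lists the number of higher genes changed by over 1.5 times. With library sizes alone it was 6 for other recombination genes, 4 for other checkpoint genes, 1 for end joining and 1 for DNA replication. In the 3 FPKM analyses it was 1 for end joining, 5 for excision repair and 1 for DNA replication. For mismatch repair it was 3 with RLE and upper quartile factors and under the stricter filter, and 1 to 2 with a library left out.

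Samples share replicate numbers, and the labels do not say whether the numbers pair them. Deviations of same-numbered libraries correlated at −0.0040, 0.00097 and 0.0206, and those of differently numbered ones at −0.0178 to 0.0170. Such weak correlations cannot show whether libraries were handled in pairs. With the replicate block 29 genes were lower, 7 higher and 8 lower past 1.5, and the median was −0.92. With 3 libraries per group and no spike-in, changes are relative to the other RNA of a library, and genes of few counts, RAD51B, FANCB, RAD51D and RNF8, have the widest errors.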
